A study of Mus musculus with 4 samples.

Results

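Notch signalling was described at the level of RNA through 10 genes, namely the receptor genes Notch1 and Notch2, the nuclear mediator genes Rbpj and Maml1, the target genes Hes1, Hey1, Dtx1 and Nrarp, the receptor-modifying fringe gene Lfng and the ligand gene Jag1. All 10 are among the 18193 genes named on the array, and every probe set that names a member and no other gene was used, which gave 21 probe sets. A probe set is a group of short oligonucleotides on an Affymetrix array that together report the RNA of a gene. Of the 21, 14 probe sets from 9 genes reached an intensity of 157, the median of all deposited values, on at least 1 array. This is the level filter used throughout; Jag1 had no probe set above it. The members just inside the filter were Lfng on probe set 1420643_at and Hes1, whose highest arrays read 187 and 216. Just outside it was Notch2 on probe set 1451889_at, with a highest array of 143.

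The study set Fbw7-deficient against wild-type (WT) progenitors from mouse bone marrow, with 1 array for each of 4 sorted populations: Fbw7-deficient LSK, WT LSK, Fbw7-deficient MP and WT MP. LSK cells lack lineage markers and carry Kit and Sca1, the gate in which blood stem cells are found. MP cells, myeloid progenitors, share the absence of lineage markers and the presence of Kit but lack Sca1. All animals of both genotypes received 3 intraperitoneal injections of polyI:C, a double-stranded RNA that induces interferon, at 20 ug per g, and cells were collected 2 weeks after treatment. Each genotype is a pool of bone marrow from 3 mice, made ahead of the sort, and both of its arrays draw on that pool. Not given in the sources used here: the allele, any Cre driver, and the strain, age and sex of the mice. With 1 array per group there is no replicate error and no test, and every difference below is a difference of log2 intensities between single arrays.

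In Notch signalling, a ligand of the Jagged or Delta-like family on a neighbouring cell binds a Notch receptor, whose intracellular part is then cut free by ADAM proteases and gamma-secretase. That fragment enters the nucleus, joins the DNA-binding protein RBPJ and the coactivator MAML1, and switches on target genes such as Hes1 and Hey1. FBW7 is the substrate-binding part of an SCF ubiquitin ligase that recognises the phosphorylated intracellular fragment of Notch and marks it for degradation. Notch1 is best known in blood for directing lymphoid progenitors to the T cell fate. Because FBW7 acts on protein, the amount of the Notch fragment is not seen in these RNA values; target genes are the readout of the pathway that an array can offer.

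The promoters of Notch1, Rbpj and Nrarp are shown because these are the members with the 5 largest genotype differences in MP cells on their probe sets. Sequences are those of RefSeq on GRCm38.p6, from 250 bases before to 50 bases after the annotated start, written 5′ to 3′ on the gene's strand. Notch1 is at chr2:26503773-26504072 on the minus strand, Rbpj at chr5:53590096-53590395 on the plus strand and Nrarp at chr2:25180508-25180807 on the plus strand. Capitals mark TGGGAA and its reverse complement TTCCCA, the core letters of the RBPJ motif, searched on both strands.
Notch1: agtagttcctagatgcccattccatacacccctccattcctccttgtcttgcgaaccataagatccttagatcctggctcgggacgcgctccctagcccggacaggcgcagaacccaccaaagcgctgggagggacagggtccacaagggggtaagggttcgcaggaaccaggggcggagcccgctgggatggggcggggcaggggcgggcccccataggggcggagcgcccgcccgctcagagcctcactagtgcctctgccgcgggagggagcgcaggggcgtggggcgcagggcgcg
Rbpj: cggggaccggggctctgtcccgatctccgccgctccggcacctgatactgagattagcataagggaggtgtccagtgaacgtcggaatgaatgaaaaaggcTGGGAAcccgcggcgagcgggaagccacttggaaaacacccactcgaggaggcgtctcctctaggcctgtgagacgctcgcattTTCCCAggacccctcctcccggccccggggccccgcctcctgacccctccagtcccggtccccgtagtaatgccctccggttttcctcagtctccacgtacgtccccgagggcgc
Nrarp: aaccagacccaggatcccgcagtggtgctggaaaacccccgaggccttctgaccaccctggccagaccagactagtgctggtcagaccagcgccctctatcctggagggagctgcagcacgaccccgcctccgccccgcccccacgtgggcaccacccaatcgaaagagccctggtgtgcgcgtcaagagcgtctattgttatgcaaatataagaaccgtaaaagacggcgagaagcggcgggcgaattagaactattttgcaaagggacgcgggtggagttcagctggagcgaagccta
The Rbpj window holds the letters in 2 places, which begin 149 and 65 bases before the start, and the windows of Notch1 and Nrarp hold none. Promoters were matched for 8 of the 10 members; Hes1 and Hey1 were without an entry. A further window of Rbpj overlaps the first and holds 1 of the same matches, and the Lfng window holds 2. The letters occur in 25.6% of the 32851 promoter windows of the same length, and in 3 of the 9 member windows. These 3 windows belong to 2 of the 8 members with a promoter, since the 2 Rbpj windows share a match. A match is a description of the sequence and not a binding site.

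Fbxw7, the gene that encodes Fbw7, read 1103 in Fbw7-deficient LSK, 1355 in WT LSK, 958 in Fbw7-deficient MP and 691 in WT MP on its brighter probe set. The second probe set gave log2 genotype differences of 0.09 in LSK and 0.44 in MP. Which part of the gene was removed is not known here, so these values do not check the genotype labels. The LSK gate carried stem cell markers: of 12 listed markers the array names 10, and each of these 10 was brighter in LSK than in MP cells, in Fbw7-deficient as in WT marrow. All 10 read lower in Fbw7-deficient than in WT LSK, with a median log2 value of -0.88. Ly6a, which encodes Sca1, is not named by the annotation used here. The WT LSK array stood apart in RNA quality, with a ratio of 3′ to 5′ Gapdh control probe sets of 4.30 against 2.60 to 2.95 on the other 3 arrays. Actb gave 3.53 against 2.67 to 2.99. The LSK genotype comparison, WT LSK against WT MP and the difference of the genotype differences use the WT LSK array; the part of RNA quality in their differences was not tested. Fewer cells of a type and less RNA per cell cannot be told apart in such sorted pools.

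No member passed 2-fold between genotypes, neither in LSK nor in MP cells. Of all 20887 named probe sets above the level filter, 3.38% passed 2-fold in LSK and 2.08% in MP. Among the 14 member probe sets above the filter the median log2 difference was -0.03 in LSK, against 0.01 for all 20887, and ranged between -0.52 for Notch2 and 0.26 for Hes1. In MP their median was -0.11, against -0.01 for all, and the range ran between -0.76 for Notch1 and 0.75 for Nrarp. A scale for these sizes comes from genes with at least 2 probe sets above the filter, of which there are 5279. The genotype differences given by the 2 brightest probe sets of such a gene lay apart by a median of 0.19 in LSK and 0.17 in MP, and by 0.56 and 0.49 at the 90th percentile. This gap between probe sets describes measurement on the same arrays and is no substitute for a spread between animals.

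**Figure D1:**
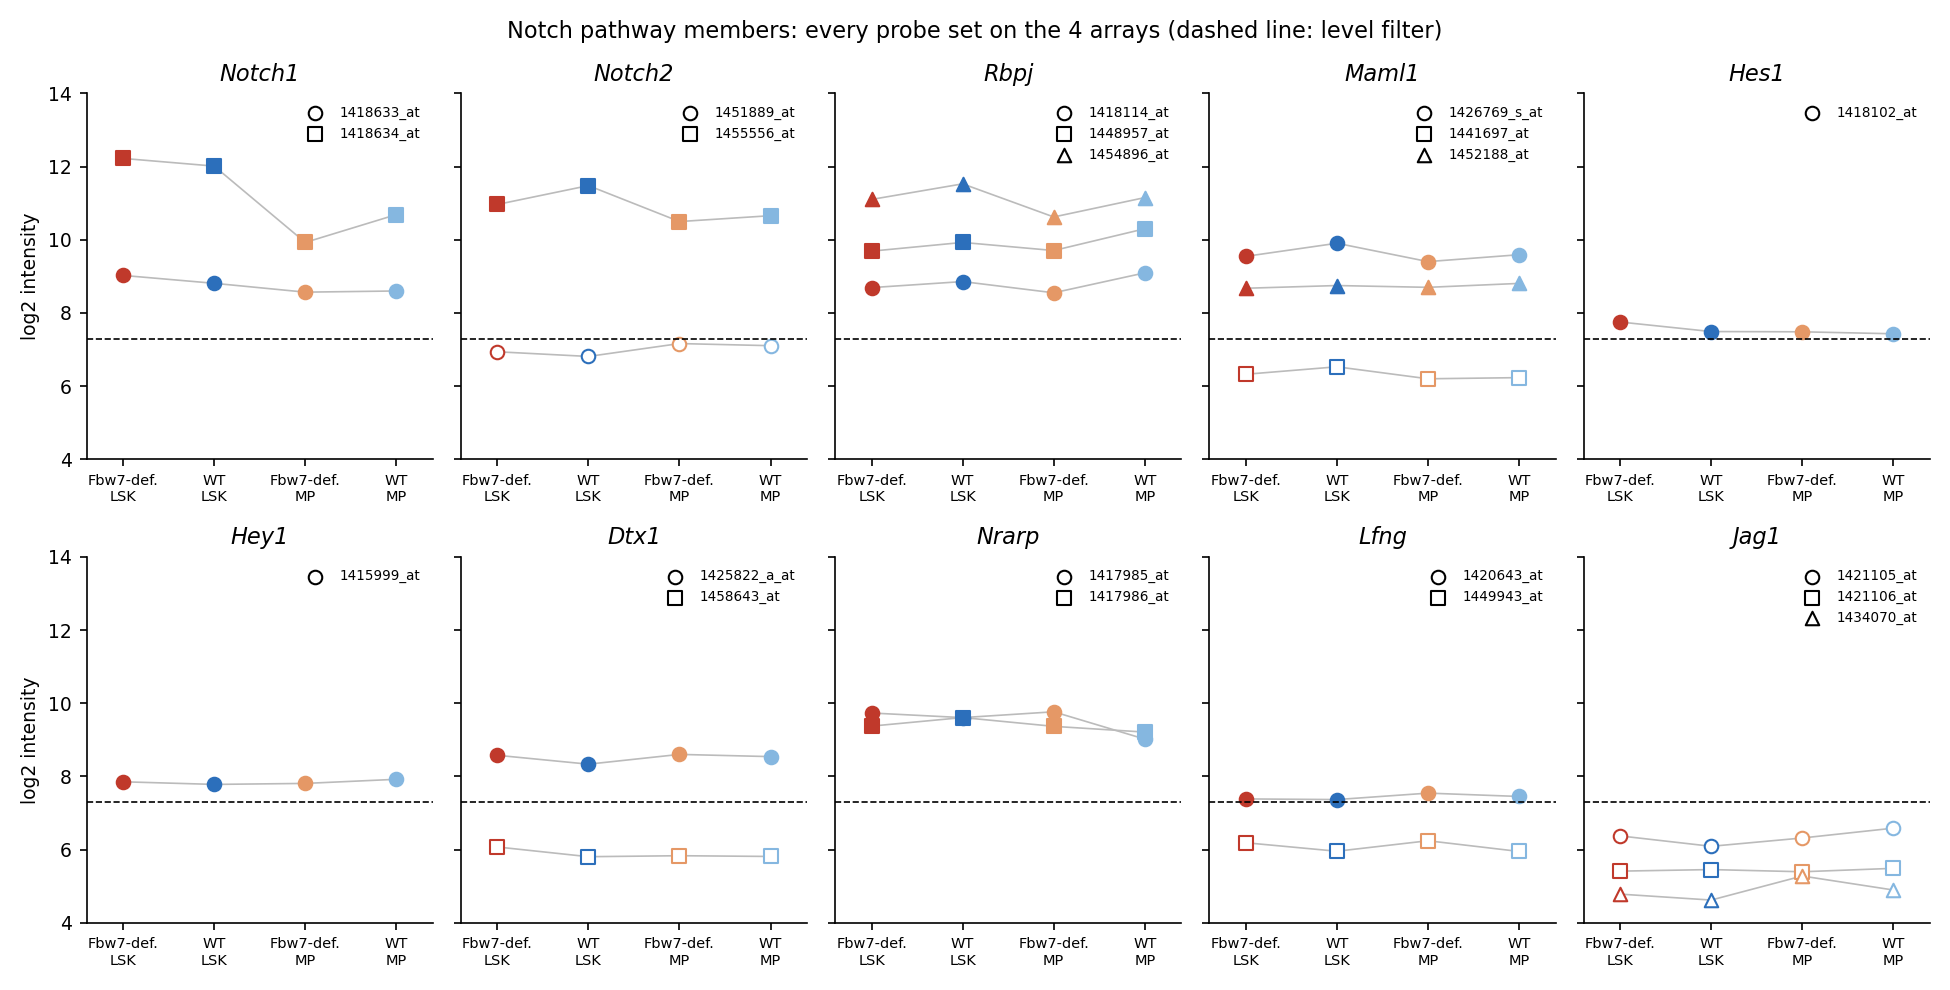
log2 intensity (vertical axis) of all 21 member probe sets on the 4 arrays (horizontal axis), 1 panel per gene; each marker shape is a probe set, grey lines join its values, open symbols lie below the level filter of 157 (dashed line) on all arrays. Notch1 on probe set 1418634_at separates LSK from MP, and the 3 Rbpj probe sets each read lower in Fbw7-deficient than in WT cells of both populations; heights of different probe sets are not comparable.

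Notch1 encodes the receptor that starts T cell commitment. On probe set 1418634_at it read 4787 in Fbw7-deficient LSK and 4139 in WT LSK, and 974 in Fbw7-deficient MP and 1650 in WT MP. Both LSK arrays thus lay above both MP arrays, with the genotypes in opposite order in the 2 populations. The genotype difference was log2 0.21 in LSK and -0.76 in MP, where Fbw7-deficient cells read 0.59-fold of the WT level. Of all named probe sets above the filter, 4.40% differed by at least as much between the MP arrays in either direction. The LSK difference was about the size of the usual gap between probe sets of a gene. The other Notch1 probe set, 1418633_at, read 521 in Fbw7-deficient LSK, 449 in WT LSK, 380 in Fbw7-deficient MP and 388 in WT MP. It gave 0.22 in LSK, close to the first, but -0.03 in MP. The 2 Notch1 probe sets therefore disagree by 0.73 on the MP difference, more than the 90th percentile of 0.49 for such pairs, and where each lies in the transcript was not analysed here.

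Notch2, the second main receptor of blood progenitors and the one that marginal zone B cells need, read 2001 in Fbw7-deficient LSK and 2860 in WT LSK on probe set 1455556_at. The same probe set read 1447 in Fbw7-deficient MP and 1618 in WT MP. WT LSK was highest and the Fbw7-deficient arrays lay below WT in both populations, by log2 -0.52 in LSK and -0.16 in MP. The LSK difference was the largest of the 14 members there, yet 14.8% of all named probe sets above the filter differed at least as much. Notch2 on probe set 1451889_at stayed between 112 and 143 on the 4 arrays, below the filter, and gave no level to compare.

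Rbpj encodes the DNA-binding partner through which every Notch receptor acts. Its 3 probe sets all read lower in Fbw7-deficient cells, in LSK as well as in MP. On probe set 1454896_at the values were 2201 in Fbw7-deficient LSK and 2957 in WT LSK, and 1578 in Fbw7-deficient MP and 2279 in WT MP. Probe set 1448957_at read 826 in Fbw7-deficient LSK and 974 in WT LSK, and 836 in Fbw7-deficient MP and 1263 in WT MP. On these, WT arrays exceeded the Fbw7-deficient array of the same population each time, and the lowest array was Fbw7-deficient. Probe set 1418114_at read 414 and 464 in Fbw7-deficient and WT LSK, and 375 and 547 in Fbw7-deficient and WT MP. The log2 genotype differences were -0.43, -0.24 and -0.17 in LSK and -0.53, -0.60 and -0.55 in MP, in the order given. In MP the 3 probe sets lay within 0.07 of each other; between 7.80% and 9.98% of all named probe sets above the filter differed as much. The probe sets report the same RNA on the same arrays and are not independent samples. Its promoter is the one shown above with 2 copies of the RBPJ core letters. The Lfng window also holds 2, and a link between these letters and the RNA values was not tested.

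Maml1 encodes a coactivator that binds the complex of Notch fragment and RBPJ. On probe set 1426769_s_at, of a kind that can match several transcripts, it read 748 in Fbw7-deficient LSK and 959 in WT LSK, and 677 in Fbw7-deficient MP and 772 in WT MP. Probe set 1452188_at read 409 in Fbw7-deficient LSK and 430 in WT LSK, and 416 in Fbw7-deficient MP and 448 in WT MP. Both were lower in Fbw7-deficient cells of both populations, by log2 -0.36 and -0.07 in LSK and -0.19 and -0.11 in MP. Apart from -0.36, these sizes are near or below the usual gap between probe sets of a gene. One more Maml1 probe set, 1441697_at, lay below the filter with 73.5 to 92.3 on the 4 arrays.

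Hes1, which encodes a repressor of the HES family and is the classical direct target of Notch, read 216 in Fbw7-deficient LSK, 180 in WT LSK, 179 in Fbw7-deficient MP and 173 in WT MP. The Fbw7-deficient LSK array was the highest by a small step and the other 3 lay close together. The log2 genotype difference was 0.26 in LSK and 0.05 in MP. Hey1, of the related HEY family of repressors, read 231 in Fbw7-deficient LSK, 220 in WT LSK, 224 in Fbw7-deficient MP and 243 in WT MP. Its log2 genotype differences of 0.07 and -0.11 were smaller than the usual gap between probe sets. Both genes lay not far above the level filter.

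Dtx1 encodes Deltex1, a ubiquitin ligase that binds Notch and is itself induced by Notch in lymphocytes. On probe set 1425822_a_at it read 382 in Fbw7-deficient LSK and 323 in WT LSK, and 389 in Fbw7-deficient MP and 373 in WT MP. WT LSK was the lowest array, with a log2 genotype difference of 0.24 in LSK and 0.06 in MP. Probe set 1458643_at of the gene was below the filter with 56.0 to 67.3.

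Nrarp encodes a small ankyrin-repeat protein that is induced by Notch and dampens its signal. On probe set 1417985_at it read 852 in Fbw7-deficient LSK and 781 in WT LSK, and 872 in Fbw7-deficient MP and 520 in WT MP. Here WT MP was low and the other 3 arrays lay close together, so the log2 genotype difference was 0.13 in LSK and 0.75 in MP. Of all named probe sets above the filter, 4.61% differed by at least as much between the MP arrays in either direction. Counting only those higher in Fbw7-deficient MP, the share was 1.60%. On probe set 1417986_at the values were 665 in Fbw7-deficient LSK and 782 in WT LSK, and 662 in Fbw7-deficient MP and 594 in WT MP. This gave -0.23 in LSK, opposite to the first probe set, and 0.16 in MP. The probe sets thus share the direction in MP but lie 0.59 apart, which exceeds the 90th percentile of 0.49 for pairs of a gene.

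Lfng encodes lunatic fringe, a glycosyltransferase that adds sugar to Notch receptors and shifts their preference from Jagged to Delta-like ligands. On probe set 1420643_at it read 167 in Fbw7-deficient LSK, 165 in WT LSK, 187 in Fbw7-deficient MP and 175 in WT MP, with log2 genotype differences of 0.02 and 0.09. Probe set 1449943_at was below the filter with 61.8 to 75.7. Jag1, which encodes the ligand Jagged1 known from stromal and endothelial niche cells, was below the filter on all 3 of its probe sets, with 24.6 as the lowest and 96.1 as the highest of the 12 values. Probe sets under the filter may hold background alone, and their differences are plotted as open symbols but not read.

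**Figure D2:**
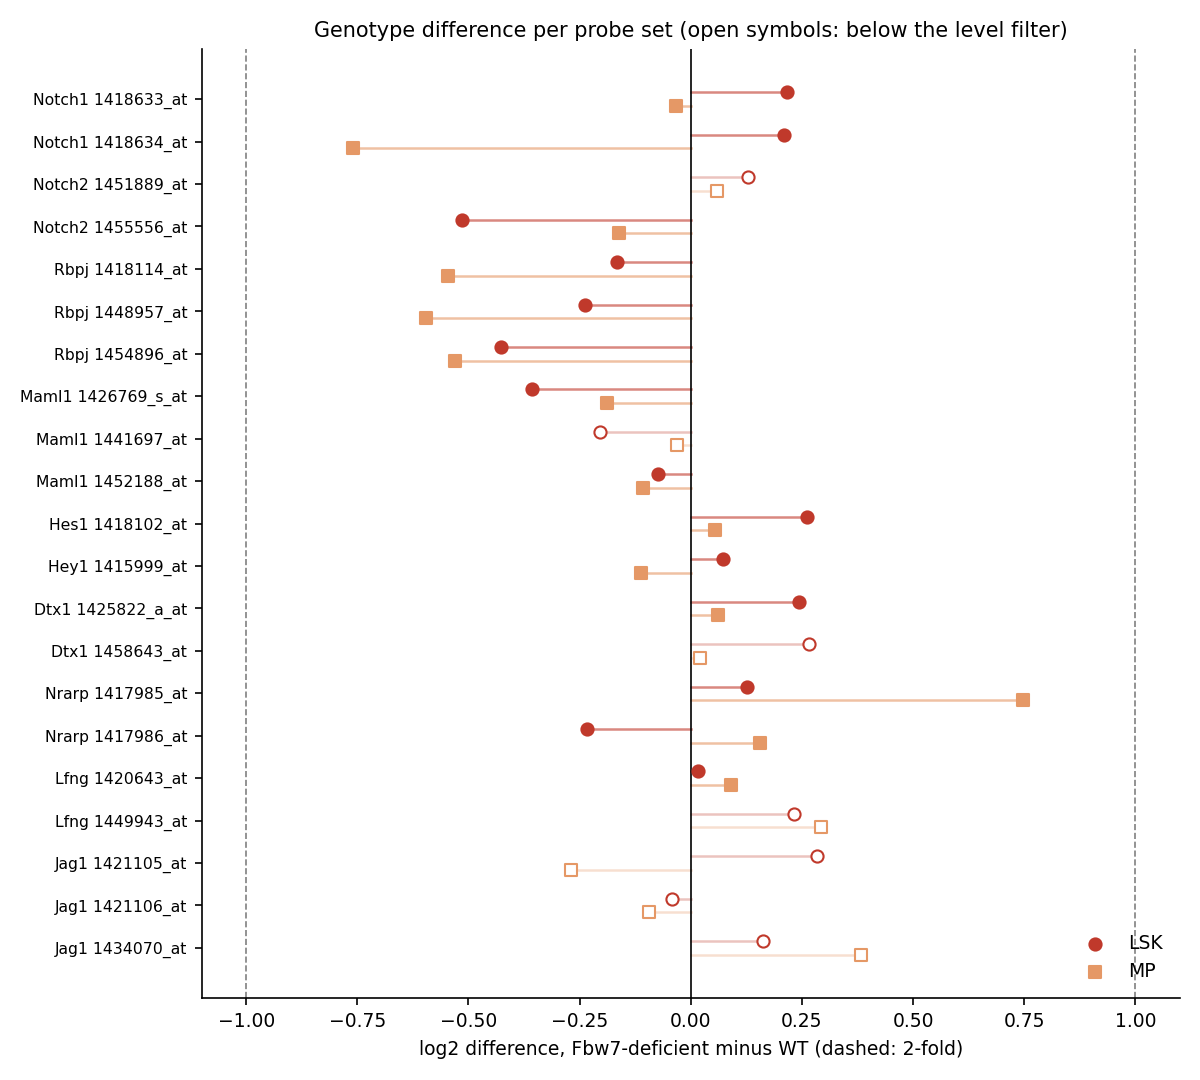
log2 difference of Fbw7-deficient minus WT (horizontal axis) for each of the 21 member probe sets (rows), in LSK (circles) and in MP (squares); open symbols lie below the level filter and dashed lines mark 2-fold. No symbol reaches 2-fold; Notch1 1418634_at at -0.76, the 3 Rbpj probe sets between -0.60 and -0.53 and Nrarp 1417985_at at 0.75 are the largest, all in MP.

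With 1.5-fold in place of 2-fold, no member probe set passed in LSK, where 11.5% of all named probe sets did. In MP 3 of 14 passed, where 8.15% of all did: Notch1 1418634_at and Rbpj 1448957_at were lower, as were 5.2% of all, and Nrarp 1417985_at was higher, as were 2.94% of all. Directions were divided in LSK, with 7 of 14 above 0 where 51.4% of all named probe sets were, and 5 of 14 were above 0 in MP, where 48.8% were. By role, the 7 probe sets below 0 in LSK were those of Notch2, Rbpj and Maml1 and Nrarp 1417986_at, and the targets Hes1, Hey1, Dtx1 and Nrarp lay between -0.23 and 0.26 there.

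**Figure D3:**
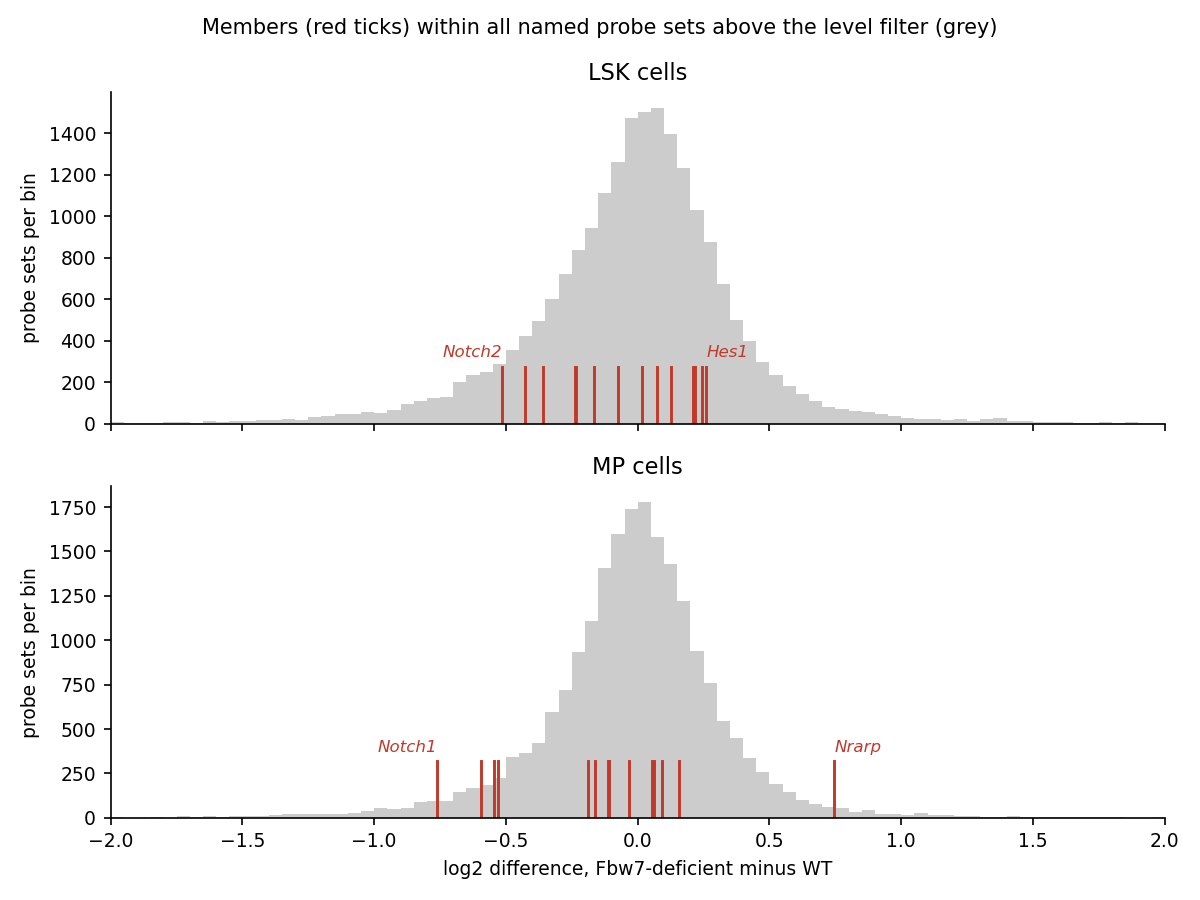
Number of probe sets per bin (vertical axis) by log2 difference of Fbw7-deficient minus WT (horizontal axis) for all 20887 named probe sets above the level filter (grey), in LSK (top) and MP (bottom), with the 14 member probe sets as red ticks. The ticks stay within -0.52 and 0.26 in LSK, while Notch1 at -0.76 and Nrarp at 0.75 lie in the flanks of the MP distribution.

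By its design the study used MP cells to tell which genes are enriched in LSK, so each member was also compared between the populations. Notch1 had the largest population difference of the members, on 1 of its 2 probe sets. On probe set 1418634_at it was higher in LSK than in MP by log2 2.30 (4.91-fold) between the Fbw7-deficient arrays and by log2 1.33 (2.51-fold) between the WT arrays. It was the only member probe set past 2-fold in either comparison, where 5.33% of all named probe sets passed between the Fbw7-deficient and 7.29% between the WT arrays. Counting those higher in LSK alone, the shares were 3.85% and 4.93%. Between the Fbw7-deficient arrays 0.61% of all differed as much, a comparison that does not use the WT LSK array. On probe set 1418633_at the differences had the same direction but were 0.46 and 0.21. The 2 Notch1 probe sets thus lay 1.84 apart between the Fbw7-deficient and 1.12 between the WT arrays. Both gaps exceed the 90th percentiles of 0.63 and 0.79 for such pairs. Notch2 on probe set 1455556_at was higher in LSK by 0.47 between the Fbw7-deficient and by 0.82 between the WT arrays.

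At 1.5-fold 3 of 14 passed between the WT arrays, Nrarp 1417985_at beside Notch1 and Notch2, all higher in LSK, where 13% of all named probe sets were; between the Fbw7-deficient arrays Notch1 alone passed, where 9.93% of all were higher. Nrarp was level between LSK and MP of Fbw7-deficient marrow (log2 -0.03 and 0.01 on its probe sets) and higher in LSK of WT marrow (0.59 and 0.40). For Rbpj the probe sets disagreed on the population difference: 1454896_at gave 0.48 in Fbw7-deficient and 0.38 in WT cells, while 1448957_at gave -0.02 and -0.37 and 1418114_at gave 0.14 and -0.24. Hes1 (0.27 in Fbw7-deficient and 0.06 in WT cells), Hey1 (0.04 and -0.14), Dtx1 (-0.02 and -0.21 on 1425822_a_at), Lfng (-0.16 and -0.08 on 1420643_at) and Maml1 (0.14 and 0.31 on 1426769_s_at) all stayed within 1.5-fold. The 14 members had a median of 0.09 in Fbw7-deficient and 0.14 in WT cells, against 0.02 and -0.02 for all 20887 named probe sets.

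**Figure D4:**
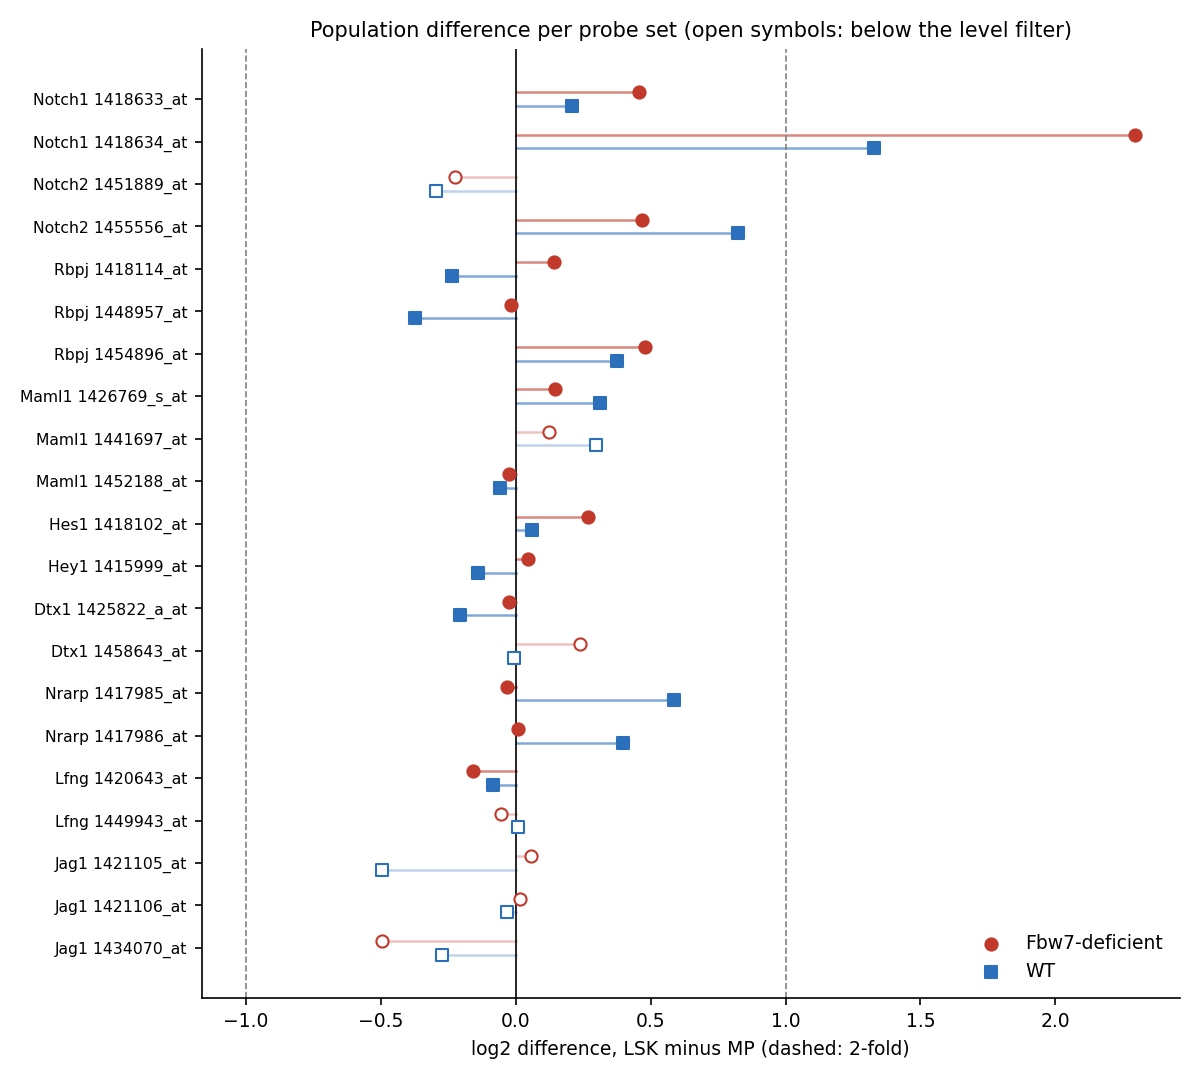
log2 difference of LSK minus MP (horizontal axis) for each of the 21 member probe sets (rows), between the Fbw7-deficient arrays (circles) and between the WT arrays (squares); open symbols lie below the level filter and dashed lines mark 2-fold. Notch1 1418634_at, at 2.30 and 1.33, is the one probe set past 2-fold, and Notch2 1455556_at follows among the WT values at 0.82.

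The genotype difference in LSK minus that in MP, which takes in all 4 arrays, was 0.97 for Notch1 on probe set 1418634_at and 0.25 on 1418633_at. For Nrarp it was -0.62 on 1417985_at and -0.39 on 1417986_at, so both genes kept the sign of this value across their probe sets. The Rbpj probe sets gave 0.10, 0.36 and 0.38, lower in MP by more than in LSK. None of the 14 reached 2-fold, which 3.34% of all named probe sets did; at 1.5-fold Notch1 1418634_at and Nrarp 1417985_at passed, 2 of 14 against 11.8% of all. Pairs of probe sets of a gene lay apart by a median of 0.25 in this value.

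Markers of other cells differed between the arrays on which Notch1 differed. The B cell list, of which 8 of 9 genes are named on the array and all 8 passed the filter, differed between genotypes by a median of log2 0.50 in LSK and -0.73 in MP. Its summed intensity was 4186 in Fbw7-deficient LSK, 2790 in WT LSK, 1944 in Fbw7-deficient MP and 3186 in WT MP. Blnk, a B cell receptor adaptor gene, read 969, 319, 174 and 404 in that order of arrays. The T cell list, with 10 of 12 genes named and 6 above the filter, summed to 1886, 2051, 1790 and 1839 in the same order, and its medians were 0.06 in LSK and -0.02 in MP. Cd3d, Cd3g, Cd8b1 and Cd2 were below the filter on all 4 arrays, and 1 gene of the list passed 2-fold between genotypes: Thy1, also carried by stem cells, read 206 in Fbw7-deficient LSK and 521 in WT LSK. In the stromal and endothelial list, with 12 of 12 genes named and 9 above the filter, sums in that order were 6484, 5289, 6126 and 4831, and Cdh5, the endothelial cadherin gene, was below the filter on all 4 arrays. Genes of this list went opposite ways. The extracellular matrix genes Col1a2, Fn1 and Col1a1 were higher in Fbw7-deficient LSK (log2 2.30, 2.14 and 1.01) and in Fbw7-deficient MP (0.97, 0.52 and 1.14). The receptor gene Pdgfrb was lower in Fbw7-deficient LSK (-2.29) and in Fbw7-deficient MP (-2.49). The erythroid list, with 6 of 8 genes named and all 6 above the filter, summed to 19718, 4113, 28058 and 12362, again in that order. Further lists differed in LSK. The 10 mature neutrophil and macrophage genes were all higher in Fbw7-deficient LSK, with a median of log2 1.52 and a summed intensity of 81714, against 38304 in WT LSK. The myeloid progenitor list, with 7 of 8 genes named, had a median of 1.11 there and sums of 105959 in Fbw7-deficient LSK and 59383 in WT LSK. The 6 megakaryocyte genes had a median of -1.03 and sums of 5830 in Fbw7-deficient LSK and 15634 in WT LSK. In MP the medians of these lists were -0.17, 0.05 and -0.39. The part of these cells in the differences of the Notch genes was not tested.

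The genes whose levels over the 4 arrays ran most like Notch1 on probe set 1418634_at were taken by the Euclidean distance of log2 values centred on each gene's mean. Among 11612 genes these were Sh3bp5, a gene for an SH3-binding regulator, at 0.10, the stress-induced mTORC1 inhibitor gene Ddit4 at 0.26 and the macrophage lectin gene Clec10a at 0.34. Sh3bp5 read 1825 in Fbw7-deficient LSK, 1701 in WT LSK, 393 in Fbw7-deficient MP and 626 in WT MP. The likeness rests on 4 arrays, and 15 genes lay within a distance of 0.5.

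Beyond the members, 79 further genes of the pathway were listed by role, of which the array names 73, and 65 had their brightest probe set above the filter. Most differed little between genotypes: 2 of 65 passed 2-fold in LSK (3.08%, against 3.74% of all 12239 genes) and 1 in MP (1.54%, against 2.31%), all of them lower in Fbw7-deficient cells, as were 1.95% of all genes in LSK and 1.49% in MP. One of the genes in LSK, Gata3, passed the filter only on the array where it is high; without it the LSK count was 1 of 64. The median log2 difference of the 65 was -0.07 in LSK and -0.03 in MP, against 0.00 for all genes in each.

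Gata3, a transcription factor gene of early T cells that Notch induces, read 79.9 in Fbw7-deficient LSK and 225 in WT LSK, and 56.3 in Fbw7-deficient MP and 47.8 in WT MP. The other 3 arrays lie under the filter, so no fold is given. Tle2, a Groucho-type corepressor gene, read 224 in Fbw7-deficient LSK and 503 in WT LSK (log2 -1.17), and 155 in Fbw7-deficient MP and 197 in WT MP (log2 -0.34). Its relatives Tle1 (0.59 in LSK and 0.36 in MP) and Tle4 (-0.51 and -0.69) were not alike. Both Gata3 and Tle2 were highest on the WT LSK array, as were the 10 listed stem cell markers that the array names. That array also stood apart in its Gapdh control probe sets. The part of RNA quality or of the mix of cells in these differences was not tested.

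Ccnd1, the cyclin D1 gene and a Notch target in several tissues, read 1137 in Fbw7-deficient LSK and 885 in WT LSK, and 454 in Fbw7-deficient MP and 976 in WT MP on its brightest probe set. Like Notch1 1418634_at it was lowest in Fbw7-deficient MP, with log2 genotype differences of 0.36 in LSK and -1.11 in MP. On 2 dimmer probe sets Ccnd1 gave 0.45 and -0.08 in LSK and 0.07 and -0.83 in MP, so the probe sets disagree. Gata2, a stem and progenitor factor gene that Notch can induce, was lower in Fbw7-deficient cells on both of its probe sets, by log2 -0.89 and -0.77 in LSK and by -0.58 and -0.37 in MP. On the brighter of them it read 1550 in Fbw7-deficient LSK and 2863 in WT LSK, and 1480 in Fbw7-deficient MP and 2220 in WT MP. The 13 target genes above the filter had medians of 0.11 in LSK and -0.03 in MP.

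Among ligands, Jag2, which encodes Jagged2, read 674 in Fbw7-deficient LSK and 1103 in WT LSK, and 499 in Fbw7-deficient MP and 635 in WT MP. It was lower in Fbw7-deficient cells of both populations, by log2 -0.71 and -0.69 on its probe sets in LSK and by -0.35 and -0.40 in MP. The Delta-like genes Dll1 and Dll4 read between 144 and 199 on the 4 arrays. Notch3 read 163 in Fbw7-deficient LSK and 138 in WT LSK, and 162 in Fbw7-deficient MP and 142 in WT MP, at the edge of the filter. Of the fringe genes other than Lfng, manic fringe, Mfng, was higher in LSK than in MP by log2 1.29 between the Fbw7-deficient and by 1.37 between the WT arrays. Its genotype differences were -0.32 in LSK and -0.24 in MP; radical fringe, Rfng, had -0.26 and 0.16 on its brightest probe set and 0.10 and -0.03, of opposite sign, on another. Poglut1, which encodes an O-glucosyltransferase of Notch, had 0.02 and -0.29.

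On their brightest probe sets, the 8 cleavage genes above the filter had genotype differences between log2 -0.27 and 0.03 in LSK and between -0.34 and 0.51 in MP. Adam17, a protease gene of the first cut, had -0.08 in LSK and -0.34 in MP, and the gamma-secretase genes Psenen and Psen2 had -0.27 and 0.03 in LSK and -0.14 and 0.51 in MP. The other probe set of Psen2 gave 0.30 and -0.15, with the opposite sign in MP. Dtx4, a Deltex relative that takes part in Notch endocytosis, read 1676 in Fbw7-deficient LSK and 895 in WT LSK, and 1917 in Fbw7-deficient MP and 2878 in WT MP. WT LSK was thus low and WT MP high, with the Fbw7-deficient arrays between them, and the log2 difference was 0.91 in LSK and -0.59 in MP. A second probe set of Dtx4 gave 0.13 and -0.20, the same directions at smaller size. Nedd4, a ubiquitin ligase gene, had -0.73 in LSK and -0.68 in MP on its brightest probe set, but its other probe sets gave 0.06 and 0.08 in LSK and 0.37 and 0.52 in MP. Mib2, a ubiquitin ligase gene for ligand endocytosis, had -0.46 and -0.12.

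The acetyltransferase genes Crebbp and Kat2b, whose products act as coactivators with MAML1, had -0.57 and -0.61 in LSK and -0.31 and -0.24 in MP. All 4 Crebbp probe sets above the filter were below 0 in LSK, the others at -0.56, -0.23 and -0.64, while in MP these others gave 0.02, -0.27 and 0.09. The other Kat2b probe set gave 0.01 in both populations. Ccnc, the cyclin C gene, had 0.26 in LSK and 0.48 in MP. Of the ligase genes, Rbx1 had 0.16 and -0.15, and Skp1 had 0.11 and 0.08 on its brightest probe set but -0.49 and 0.09 on another.

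Between populations, 2 of 65 genes passed 2-fold between the Fbw7-deficient arrays (3.08%, against 5.5% of all genes), namely Mfng and Ccnd1 at log2 1.33, both higher in LSK, as were 3.86% of all. Between the WT arrays 4 of 65 passed (6.15%, against 7.45%): Mfng, Tle2 (1.35) and Gata3 were higher and Dtx4 (-1.69) lower in LSK, against 5.05% and 2.4% of all genes. The genotype difference in LSK exceeded that in MP by at least log2 1 for Dtx4 (1.49) and Ccnd1 (1.47) and was below it by as much for Gata3, 3 of 65 (4.62%) against 3.52% of all genes. Without Gata3 these counts were 3 of 64 between the WT arrays and 2 of 64. All these counts use the brightest probe set of a gene. The other Dtx4 probe set gave 0.33 for the difference of the genotype differences and -0.45 between the WT arrays. The other Ccnd1 probe sets gave 0.38 and 0.75 for the former, and 1.13 and 1.39 between the Fbw7-deficient arrays.

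**Figure D5:**
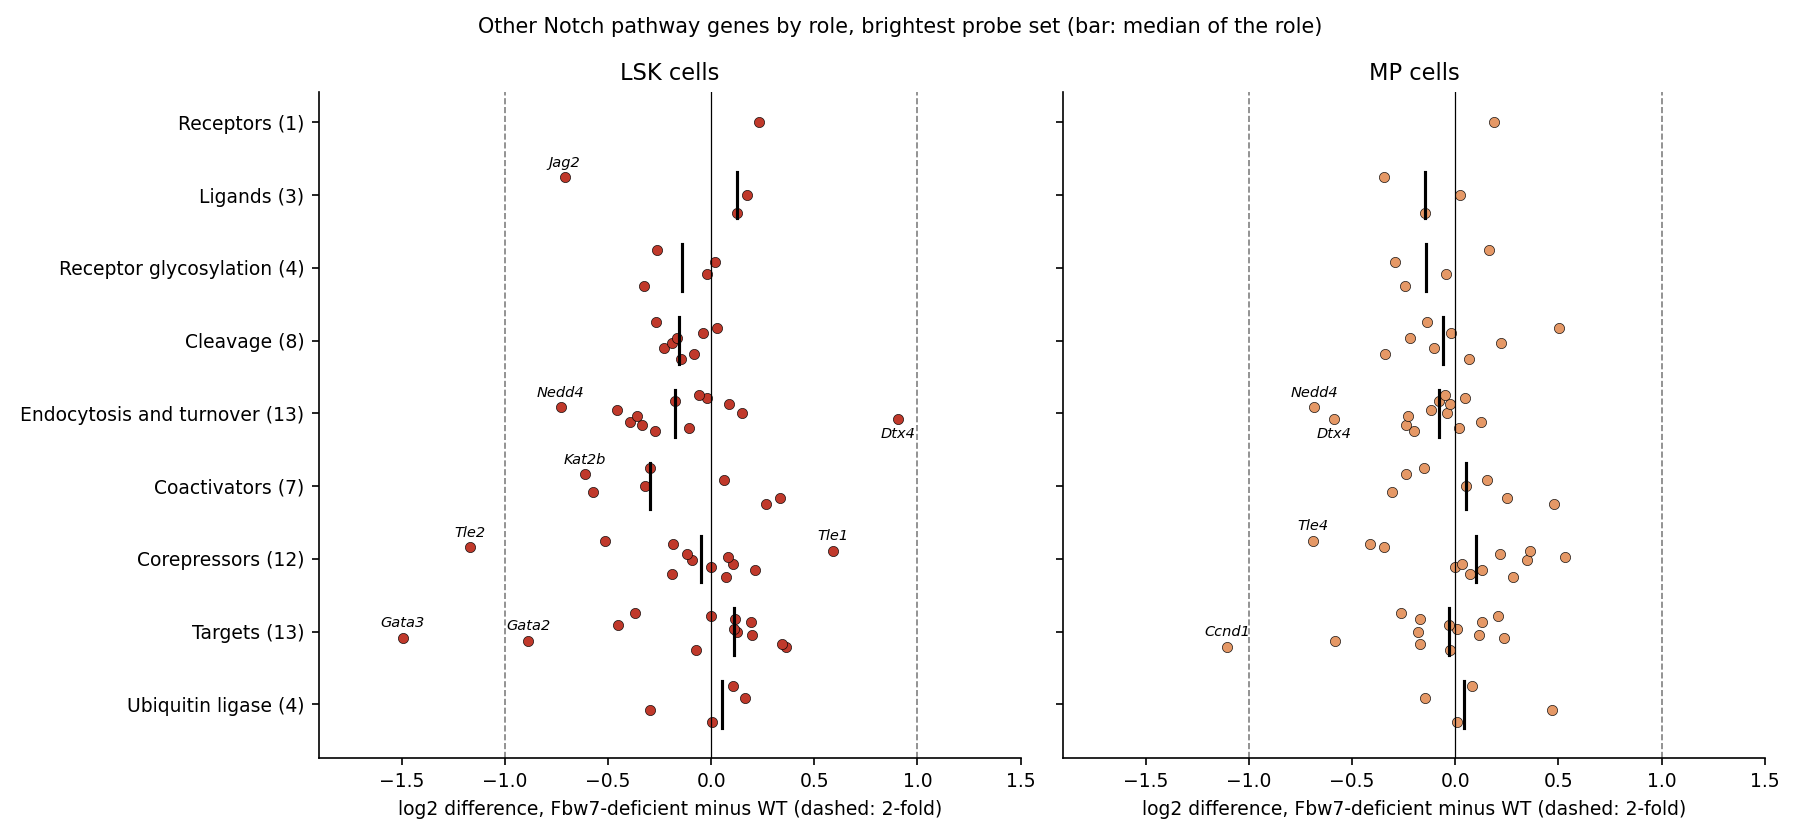
log2 difference of Fbw7-deficient minus WT (horizontal axis) for the 65 further Notch pathway genes above the level filter, by role (rows, number of genes in brackets), in LSK (left) and MP (right); points are brightest probe sets, bars the medians of a role, dashed lines 2-fold, and genes past 1.5-fold are named. Tle2 lies past 2-fold lower in LSK and Ccnd1 in MP, as does Gata3 in LSK, which passed the filter on 1 array only. Medians of the roles with more than 1 gene stay between -0.30 and 0.13, and the receptor role, with 1 gene, has no bar.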

How the data were processed

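RNA of 4 sorted populations was measured on Affymetrix arrays, with 1 array per group. Per the labels' protocols, 20 ng of total RNA was amplified in a two-cycle procedure and labelled with biotin. The authors deposited 1 linear intensity for each probe set and array, made with RMA (per the submitters' processing notes). Not given in the sources used here: the software, its version and settings. RMA brings arrays to nearly equal distributions, so total RNA per cell is not seen, and it compresses differences of dim probe sets. Here the values were taken to log2 (Python 3.11.15, numpy 2.4.6, pandas 2.3.3) and differences were computed between arrays.

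Of 45101 probe sets, 34945 name 1 gene, 932 several and 9224 none; control probe sets were counted as naming none. For 34741 the symbol was taken by gene ID from a RefSeq table of GRCm38.p6. Named were all members with every probe set, pathway genes past 2-fold in any comparison or with the 3 largest genotype differences of their role, and the 3 genes closest to Notch1 in pattern. The members and lists were chosen with earlier results of these data known. The procedure was run on simulated data with planted changes larger than any genotype difference of the members. That run does not show how well differences of the members' size are recovered. Alternatives concerned the level filter, the normalization, an offset of 50, a floor, the choice of probe sets and the fold. The number of arrays limits the precision.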

Additional observations from a re-analysis of the deposited data

Results flagged for a closer look

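Genotype differences of opposite sign in LSK and MP were seen for 4 of the 14 member probe sets above the level filter. The share of all named probe sets with opposite signs was not computed, so this count is not read as a trait of the members. In LSK 51.4% of all named probe sets above the filter were above 0, and 48.8% in MP. With 1 array per group the difference between the populations was not tested. For Notch1 the genotype difference in LSK minus that in MP was log2 0.97 on probe set 1418634_at (0.21 in LSK and -0.76 in MP) and 0.25 on 1418633_at (0.22 and -0.03). For Hey1 it was 0.18 on 1415999_at (0.07 and -0.11). The values of Hey1 and of Notch1 on 1418633_at did not exceed the median gap of 0.25 between probe sets of a gene. In MP, 89.1% of all named probe sets above the filter differed at least as much as Notch1 on 1418633_at. For Nrarp it was -0.39 on 1417986_at (-0.23 and 0.16), while 1417985_at was above 0 in both populations (0.13 and 0.75).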

How the results depend on the processing

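No paired analysis was possible because each genotype is 1 pool of mice and every array has the same replicate number; the LSK and MP arrays of a pool were compared within it, and a fit with additive genotype and population terms was not run. Under the alternatives tried, Notch1 1418634_at kept its sign and its place past 2-fold between populations. Medians of the members moved by less than the median gap between probe sets of a gene under each alternative, although the LSK genotype median changed sign without the level filter (0.07) and without probe sets that can match several transcripts (0.02), and the median between WT LSK and WT MP did so without the filter (-0.01). With 1.5-fold, 3 member probe sets passed in MP in place of 0, 3 between WT LSK and WT MP in place of 1, and 2 in the difference of the genotype differences in place of 0. Of the further pathway genes, the stricter filter left 0 past 2-fold in LSK in place of 2, and 2 between WT LSK and WT MP in place of 4. It asks every array to reach 157, tests fewer genes (57) and leaves out Gata3 and Tle2. Tle2 was left out by its Fbw7-deficient MP array, at 155, while its LSK difference of log2 -1.17 was unchanged. With the mean of all probe sets, 0 passed in MP in place of 1, and 1 in the difference of the genotype differences in place of 3. After the data were seen, the WT LSK array was left out, under which the LSK genotype comparison has no value; the MP comparison kept counts of 0 members and 1 further gene, and the Fbw7-deficient LSK to MP comparison counts of 1 and 2. Also after the data were seen, Gata3 was left out, which left 1 further gene past 2-fold in LSK in place of 2. Of 350 values for single member probe sets, 210 could not change by construction, since the filters and the floor do not touch them; the other 140 moved by less than that gap. The remaining counts stayed within 1.5 times, such as 5 further genes in place of 4 between WT LSK and WT MP, and 3 in place of 2 between Fbw7-deficient LSK and MP without the filter.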
